A study of Homo sapiens with 9 samples.

Results

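The genes described here are the collagens, laminins and integrins read in whole tumours of Hep3B, an established human liver cancer cell line, implanted into livers of Nod/Scid mice. Members were all probes whose symbol in the deposited table is that of a collagen chain, a laminin alpha, beta or gamma chain, an integrin alpha chain with a number, V or X in its name, or an integrin beta chain. The rule found 134 of 47322 probes, and these belong to 76 genes, of which 43 encode collagen chains, 12 laminin chains and 21 integrin chains. Of the 76 genes, 38 had a probe above background on at least 3 of 9 arrays and entered the tests.

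All tumours were allowed to grow for about 5 weeks, to a weight the study put at about 80 to 100 mg from the tumour marker in serum, and were taken 24 hours after 1 intravenous injection. The study compared 3 groups of 3 arrays. The first control group received dilution buffer and the second empty liposomes, while the treated group received MRX34, a liposome that carries a mimic of the microRNA miR-34a. All 9 arrays therefore share the cell line, the host strain, the growth period and the time after injection. Nod/Scid mice lack T and B lymphocytes and keep other host cells, so vessels, fibroblasts and macrophages in such a tumour are of mouse origin. The probes are human, and how far mouse RNA was read by them was not tested. RNA came from whole tumours, so fewer cells of a type and less RNA per cell cannot be told apart. The labels do not say that each array stands for a separate animal, so p-values measure the spread between these arrays, which may be technical.

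Collagens are secreted trimers that form the fibrils and sheets of the extracellular matrix. Laminins are secreted trimers of an alpha, a beta and a gamma chain and assemble with collagen IV into the basement membrane, the sheet on which epithelial and endothelial cells rest. Integrins are receptors in the cell membrane, each a pair of an alpha and a beta chain, and bind these proteins outside the cell while linking to actin inside it. Hepatocytes in normal liver face little basement membrane, and hepatocellular carcinomas are known for changes in laminins and integrins.

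The microRNA and the promoters of 4 members, chosen after their values were seen, can be shown by sequence, taken from RefSeq for GRCh38.p14. The mature strand of miR-34a, the natural microRNA that MRX34 mimics, lies at chr1:9151735-9151756 on the minus strand, and capitals mark its seed, bases 2 to 8.
hsa-miR-34a-5p: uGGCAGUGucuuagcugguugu
The promoters below run 5′ to 3′ from 250 bases before to 50 bases after the start of the gene, and capitals mark the GC box, GGGCGG or its complement CCGCCC, searched on both strands. LAMA4 (chr6:112254518-112254817, minus strand) and ITGA10 (chr1:145910001-145910300, minus strand) are shown because LAMA4 had the largest difference between MRX34 and controls and ITGA10 the lowest p. LAMB2 (chr3:49133001-49133300, minus strand) had the lowest p among those with the lower level, and LAMC1 (chr1:183023170-183023469, plus strand) hardly differed.
LAMA4: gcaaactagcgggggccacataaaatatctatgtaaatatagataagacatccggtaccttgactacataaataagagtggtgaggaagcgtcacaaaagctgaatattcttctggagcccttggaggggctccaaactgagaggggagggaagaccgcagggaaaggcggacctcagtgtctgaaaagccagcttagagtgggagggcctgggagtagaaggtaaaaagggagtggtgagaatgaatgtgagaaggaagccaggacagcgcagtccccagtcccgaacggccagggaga
ITGA10: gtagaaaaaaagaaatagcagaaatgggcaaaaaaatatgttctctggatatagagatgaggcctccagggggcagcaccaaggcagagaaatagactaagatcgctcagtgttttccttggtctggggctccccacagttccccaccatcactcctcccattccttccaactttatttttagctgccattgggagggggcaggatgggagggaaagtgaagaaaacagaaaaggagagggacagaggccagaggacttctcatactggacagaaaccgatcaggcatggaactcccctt
LAMB2: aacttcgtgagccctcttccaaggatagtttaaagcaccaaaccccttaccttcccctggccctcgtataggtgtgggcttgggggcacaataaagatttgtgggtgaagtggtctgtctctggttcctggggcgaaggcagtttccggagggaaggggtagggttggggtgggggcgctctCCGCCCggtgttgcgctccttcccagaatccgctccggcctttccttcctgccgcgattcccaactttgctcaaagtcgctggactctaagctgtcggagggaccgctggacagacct
LAMC1: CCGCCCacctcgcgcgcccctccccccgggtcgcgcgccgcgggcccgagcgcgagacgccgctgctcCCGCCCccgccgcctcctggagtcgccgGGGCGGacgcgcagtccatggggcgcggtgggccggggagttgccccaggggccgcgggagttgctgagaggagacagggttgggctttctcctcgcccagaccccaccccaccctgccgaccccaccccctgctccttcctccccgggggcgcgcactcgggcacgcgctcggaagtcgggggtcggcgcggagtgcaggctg
The windows of LAMA4 and ITGA10 held 0 GC boxes, that of LAMB2 held 1 and that of LAMC1 held 3. CpG pairs numbered 8 in LAMA4, 2 in ITGA10, 15 in LAMB2 and 41 in LAMC1. A promoter was found for 54 of the 76 members, 28 of them among the 38 tested. A GC box was present in 67.5% of 40 promoters of tested members, in 45.5% of 33 promoters of members not tested and in 45.0% of all 35116 promoters of the same length. The letters TATAAA occurred in 15%, 12.1% and 11.5% of the same sets, and TGACTCA, the AP-1 site, in 7.5%, 0% and 4.95%. These shares describe windows of sequence, and several promoters belong to the same gene.

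Mean background-subtracted intensity per array ranged from 163 (empty liposomes 1) to 616 (dilution buffer 2), and between 33 and 54 of the 134 member probes lay above background on an array, the fewest on empty liposomes 1. The Hep3B markers AFP and GPC3 lay above background on all 9 arrays. The mean level of GNMT and OTC, which are made in adult hepatocytes, was 8.21, 10.06 and 14.32 on the dilution buffer arrays, 13.57, 11.95 and 10.80 on the empty liposome arrays, and 11.00, 10.05 and 7.73 on the MRX34 arrays. It was highest on dilution buffer 3 and empty liposomes 1, and differences that move with these arrays are also given without them. Other genes of the 8-gene adult hepatocyte list did not all follow this level. CPS1 read 11.53 and 11.22 on these 2 arrays and was highest, 12.82, on empty liposomes 2. TAT read 4.91 and 4.86 on them and was highest, 6.20, on MRX34 2. PCK1 read 5.00 and 6.72 on them, the latter its highest value. The level is therefore that of GNMT and OTC only. Levels are log2 intensities after background correction and quantile normalization, raised by an offset of 16 that shrinks the differences of dim probes. The level of a probe can be compared between arrays but not with that of another probe.

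Most collagen chains did not reach the filter of 3 arrays above background in these tumours, while a larger share of laminin and integrin chains did. Of the 70 collagen probes, 25.7% passed the filter, against 50% of 24 laminin probes and 55% of 40 integrin probes. Over all 134 member probes the share was 38.8%, beside 45.1% of all named probes of the table. Of the 76 genes, 20 lay above background on all 9 arrays, 11 on 1 or 2 arrays and 27 on none. The plot of arrays above background gives the count for each gene above it on any array.

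**Figure D1:**
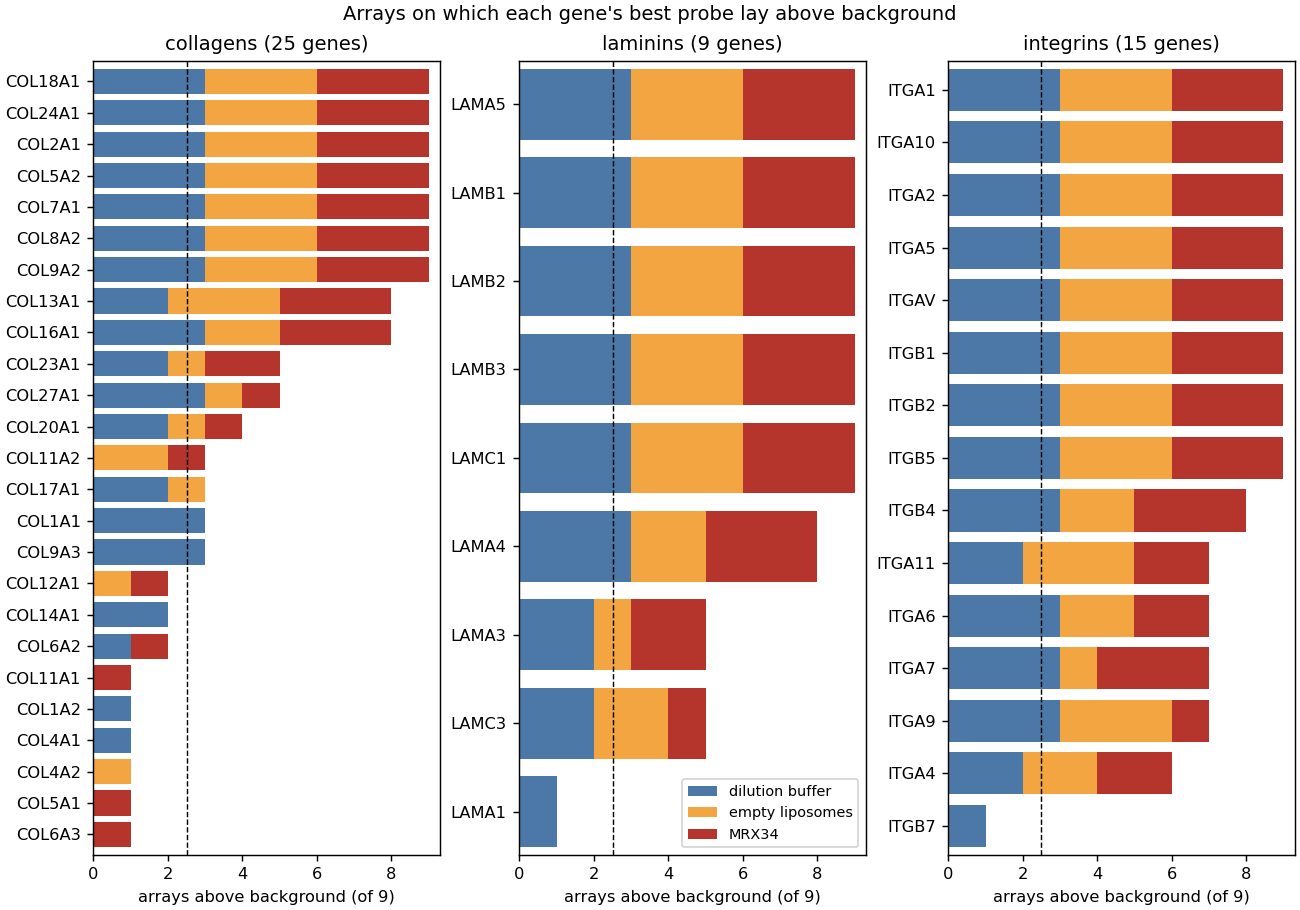
Number of arrays, out of 9, on which a gene's probe lay above background (x axis; detection p under 0.05), for the 49 genes above background on at least 1 array, with the probe above background on the most arrays taken for each gene. Bars are divided by group (blue, dilution buffer; orange, empty liposomes; red, MRX34), and the dashed line marks the filter of at least 3 arrays. The other 27 genes were above background on no array and are not drawn.

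None of the 6 chains of collagen IV, the collagen of the basement membrane, passed the filter. COL4A1 and COL4A2, which form its common trimer, were each above background on 1 array, and COL4A3, COL4A4, COL4A5 and COL4A6 on 0. None of the 5 chains of collagen VI, which forms beaded filaments, passed either. Of these, COL6A2 was above background on 2 arrays and COL6A3 on 1, while COL6A1, COL6A5 (named COL29A1 in the table) and COL6A6 were above it on 0. Among the 11 fibrillar collagens, whose trimers build banded fibrils, 6 passed: COL1A1, COL2A1, COL5A2, COL11A2, COL24A1 and COL27A1. COL1A2, the partner chain of COL1A1 in collagen I, and COL3A1 were not among them, nor were COL5A1, COL5A3 and COL11A1. The fibril-associated COL9A1, COL12A1, COL14A1, COL19A1, COL21A1 and COL22A1 did not pass, and neither did COL8A1, COL10A1, COL15A1, COL25A1 and COL28A1. The 66 probes of the 38 genes that did not pass ranged from 4.43 to 7.03, with a median of 4.73. The highest of these values, 7.03, was that of COL12A1 on empty liposomes 1, and COL4A2 reached its highest value, 6.27, on the same array.

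Among the laminins, all chains of the trimer of LAMA5, LAMB1 and LAMC1 were above background on all 9 arrays, and so was LAMB2, which can take the place of LAMB1. LAMA4, the alpha chain known from blood vessels, was tested as well. LAMA3 and LAMB3, chains of a laminin of epithelia, were tested too. LAMA1, LAMA2 and LAMB4 did not pass. Among the integrins, all 4 alpha chains that bind collagen passed, and ITGA6 and ITGA7 of the 3 that bind laminin did, while ITGA3 was above background on 0 arrays. ITGA5, which binds fibronectin, and ITGAV, which binds vitronectin and other proteins with the RGD motif, passed and ITGA8 did not. Of the 8 beta chains, ITGB1, ITGB2, ITGB4 and ITGB5 passed. ITGB3, ITGB6 and ITGB8, the other partners of ITGAV, were above background on 0 arrays, and ITGB7 on 1. ITGAX, an alpha chain of myeloid cells, was above background on 0 arrays.

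The main question of the design is what 24 hours of MRX34 did to these transcripts relative to both control articles. In limma's fit over all 15387 genes, 0 of the 38 tested members reached an adjusted p under 0.05 (Benjamini-Hochberg), and 0 genes of the whole table did (0%). The lowest adjusted p of a member was 0.326. At an unadjusted p under 0.05, 5 members (13.2%) had higher levels after MRX34, where 6.88% of all genes did, and 4 members (10.5%) had lower levels, where 4.24% of all genes did. These are ITGA10, LAMA4, ITGA1, COL24A1 and ITGB2 on the higher side and LAMB2, COL9A3, ITGA9 and LAMA5 on the lower. COL9A3 passed the filter through dilution buffer alone, where it is high, so its place among the lower members follows in part from how it was kept. The median log2 difference of the members was -0.02, beside 0.04 for all genes. Of the members 17 were positive and 21 negative, where 55% of all genes were positive. Of the 16 collagens 12 were negative, with a median of -0.16. The 8 laminins had a median of 0.05 and the 14 integrins a median of 0.18. Against empty liposomes 8 collagens were negative (median 0.001), and against dilution buffer 12 were (median -0.23). COL1A1, COL9A3, COL17A1, COL20A1 and COL27A1, all negative, needed the dilution buffer arrays to pass the filter. Nothing is therefore read from the collagen count. In 4 members (10.5%: ITGA10, LAMA4, ITGA1 and ITGB2) all 3 MRX34 arrays lay above all 6 controls, as in 4.85% of all genes. In LAMB2 and ITGA9, or 5.26% of members, they lay below all 6, as in 2.11% of all genes. Weighting the arrays by their estimated quality, an alternative setting, gave dilution buffer 2 a weight of 8.13 and empty liposomes 1 one of 0.262, and then 9 members and 1465 genes passed.

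**Figure D2:**
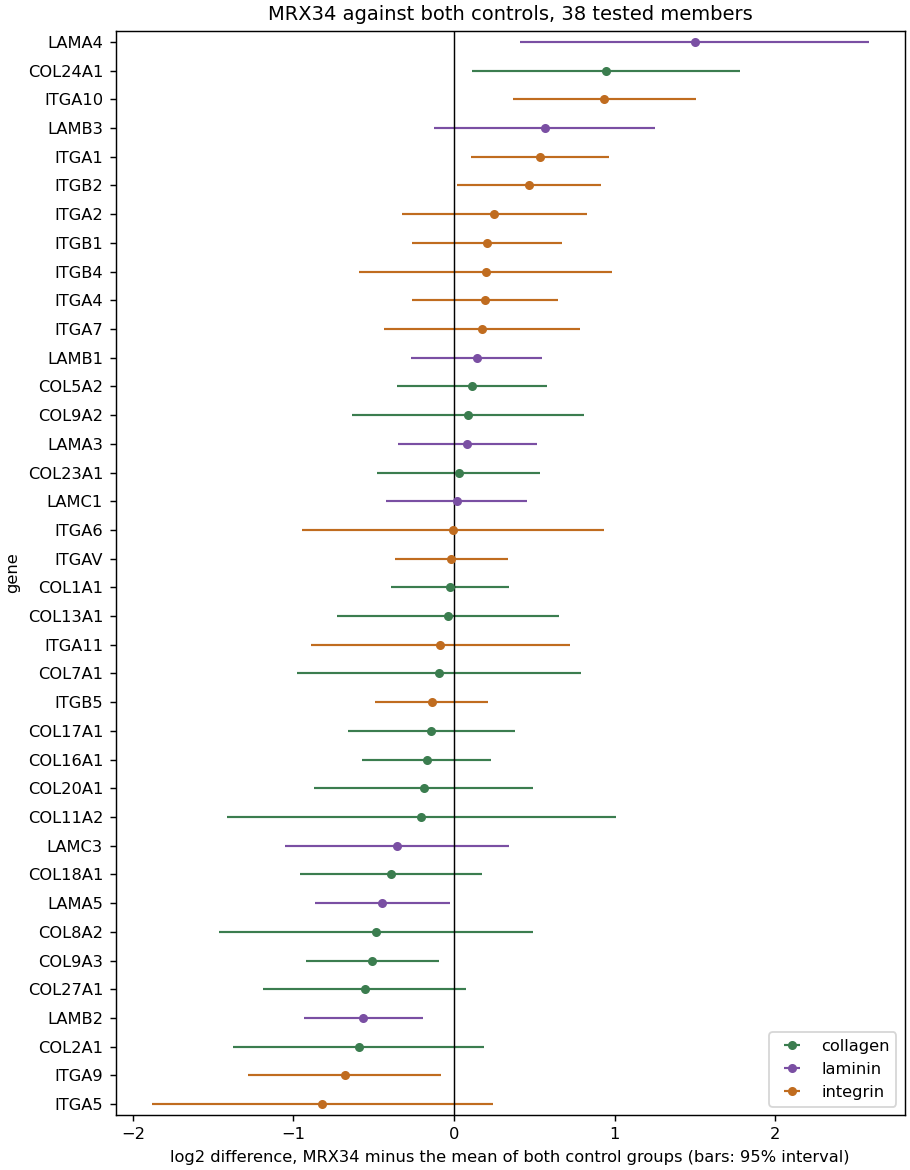
Difference in log2 level between MRX34 (n = 3) and the equally weighted mean of both control groups (n = 3 each) on the x axis, with 95% intervals from limma, for the 38 tested members, coloured by family. The intervals of 29 members include 0, and after adjustment over all genes no member passed.

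**Figure D3:**
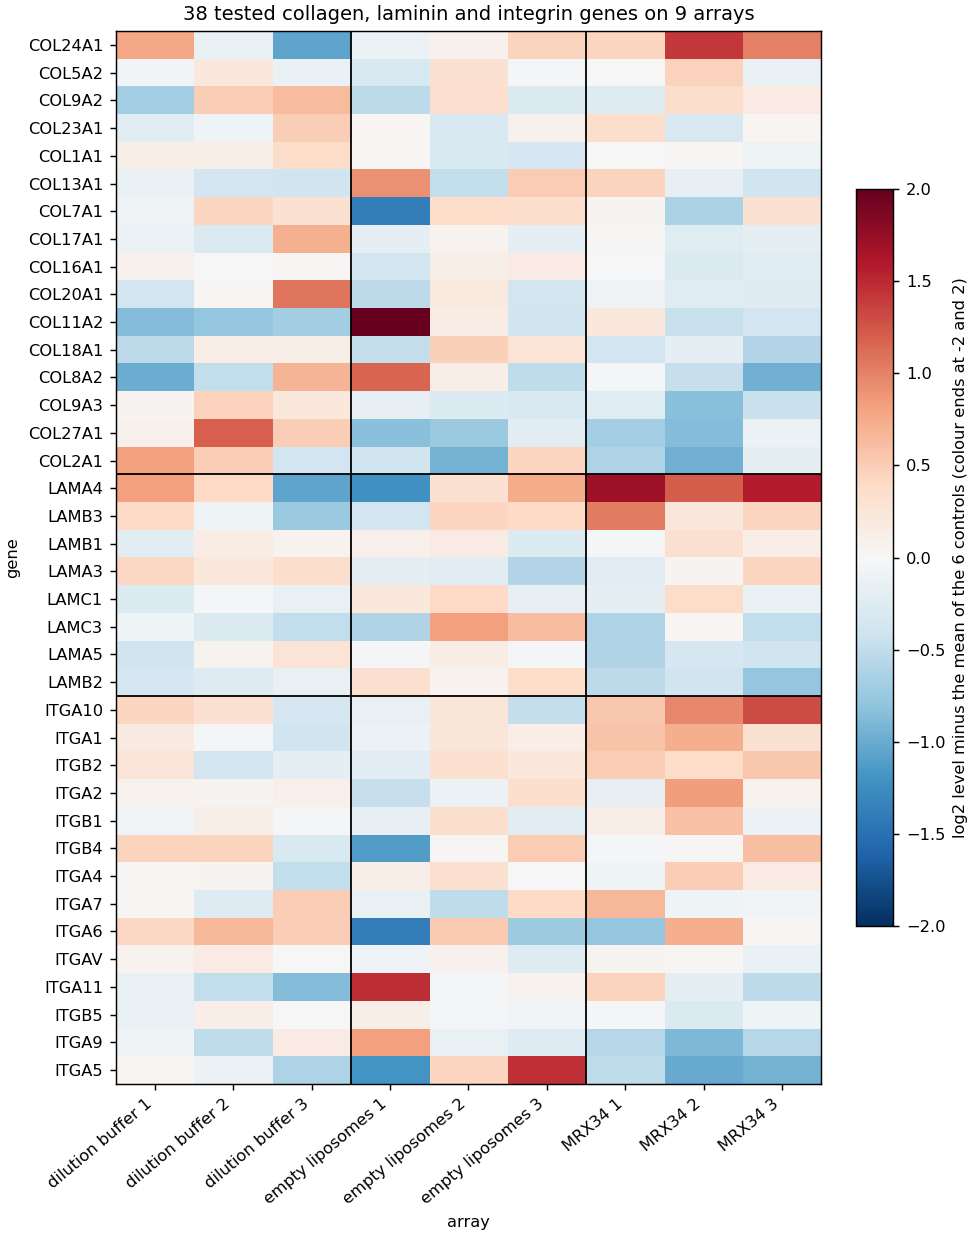
Log2 level of each of the 38 tested members on each of the 9 arrays, minus the mean of the 6 control arrays; red is above and blue below that mean, and the colour ends at -2 and 2. Members are grouped by family and ordered by their difference. Empty liposomes 1 stands apart from the other controls in both directions and held the lowest level for 9 members.

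The comparisons with each control share the MRX34 arrays, so their values are given side by side and are not independent. Against empty liposomes, 2 members (5.26%; LAMA4 and ITGA10) had higher levels at an unadjusted p under 0.05, where 6.29% of all genes did, and 2 (5.26%; LAMB2 and ITGA9) lower levels, where 3.06% did. Against dilution buffer the numbers were 5 (13.2%) beside 5.83% of genes and 2 (5.26%) beside 4.31%. The latter 2, COL27A1 and COL9A3, would not have passed the filter without the dilution buffer arrays, so nothing is read from that share. In limma's fits 0 members and 0 genes (0%) passed in either comparison, and the lowest adjusted p of a member was 0.355 against empty liposomes and 0.435 against dilution buffer. The median of the members was 0.06 against empty liposomes and -0.07 against dilution buffer, where all genes had 0.05 and 0.04. Without empty liposomes 1 the first of these medians was -0.06, and without dilution buffer 3 the second was 0.05.

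LAMA4, an alpha chain of laminins in vessel walls and around muscle and fat cells, showed the widest difference of the tested members. Its level was 7.02, 6.59 and 5.14 after dilution buffer, 4.98, 6.50 and 6.94 after empty liposomes, and 7.89, 7.41 and 7.77 after MRX34. The MRX34 arrays were close together and all above the controls, whose lowest values were on dilution buffer 3 and empty liposomes 1. The tested probe was above background on 2 dilution buffer, 2 empty liposome and 3 MRX34 arrays. Those lowest values were not above background, so the difference rests in part on background readings. The difference from both controls was 1.50 (SE 0.48, 2.83-fold; limma's adjusted p 0.374), and it was 1.56 against empty liposomes and 1.44 against dilution buffer. A second LAMA4 probe gave 1.50 with an SE of 0.37. Leaving out dilution buffer 3 and empty liposomes 1, the arrays with the highest GNMT and OTC level, gave 0.93 in LAMA4, and a fit with that level as a covariate gave 0.92. Of the 8 endothelial markers 7 (CDH5, KDR, TEK, VWF, STAB2, CLEC4G and EMCN) were at 0 arrays above background. PECAM1, the other, read 4.97, 5.28 and 5.13 after dilution buffer, 4.90, 5.53 and 5.28 after empty liposomes, and 6.01, 5.71 and 6.01 after MRX34. The mean of the endothelial list ranged from 4.73 to 4.80, from 4.68 to 4.79 and from 4.89 to 4.93 in the same order of groups, so that it was highest on the MRX34 arrays. Its part in the LAMA4 result was not tested.

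LAMB2, a beta chain of basement membranes, lay on the other side. It read 8.62, 8.69 and 8.80 after dilution buffer, 9.27, 9.01 and 9.31 after empty liposomes, and 8.43, 8.55 and 8.18 after MRX34. The groups did not overlap, with MRX34 below dilution buffer and dilution buffer below empty liposomes. The difference between MRX34 and both controls was -0.57 (SE 0.17; limma's adjusted p 0.345). It was -0.81 against empty liposomes and -0.32 against dilution buffer. LAMB1, which occupies the same place in the trimer, averaged 9.21 ± 0.20, 9.21 ± 0.23 and 9.35 ± 0.18 (SD, n = 3) in dilution buffer, empty liposomes and MRX34, a difference of 0.14 (95% interval -0.27 to 0.55) from both controls.

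LAMA5, the alpha chain that pairs with either of them in epithelial basement membranes, read 11.39, 11.85 and 12.06 after dilution buffer, 11.74, 11.93 and 11.74 after empty liposomes, and 11.18, 11.45 and 11.38 after MRX34. Dilution buffer 1 lay within the range of the MRX34 arrays and the other controls were above it. The difference was -0.45 (SE 0.19; limma's adjusted p 0.432), and with median scaling of the series value table in place of quantile normalization it was -0.20. LAMC1, the gamma chain common to most laminins, averaged 10.93 ± 0.12, 11.23 ± 0.28 and 11.10 ± 0.30 (SD, n = 3) in the 3 groups, and its difference from both controls was 0.02 (95% interval -0.42 to 0.46).

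LAMB3, part of the laminin that anchors epithelia, read 7.39, 6.90 and 6.25 after dilution buffer, 6.60, 7.42 and 7.38 after empty liposomes, and 8.03, 7.22 and 7.42 after MRX34, a difference of 0.56 (SE 0.31; limma's adjusted p 0.507). MRX34 1 was the highest of the 9 arrays, and the groups overlapped. The LAMB3 difference was 0.33 without MRX34 1, and 0.28 without dilution buffer 3 and empty liposomes 1, the control arrays with its lowest values. Its partner LAMA3 averaged 5.65 ± 0.11, 5.01 ± 0.22 and 5.41 ± 0.33 (SD, n = 3), and the tested probe was above background on 3 dilution buffer arrays, 0 empty liposome arrays and 2 MRX34 arrays. LAMC3, a gamma chain of more restricted expression, averaged 5.16 ± 0.20, 5.72 ± 0.77 and 5.09 ± 0.35 and was above background on 5 of 9 arrays.

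**Figure D4:**
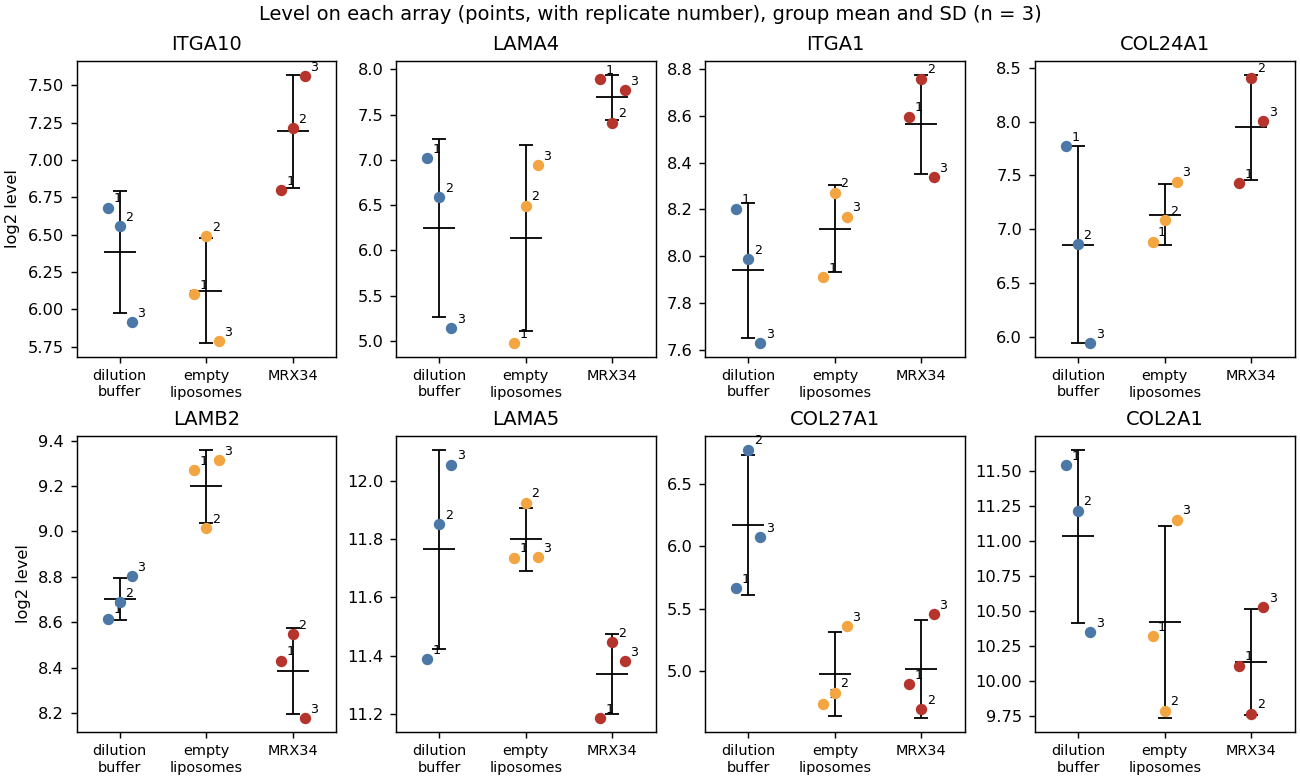
Log2 level on each array (points with the replicate number; y axis, scaled for each gene) with the group mean and SD (n = 3), for 8 members. In ITGA10, LAMA4 and ITGA1 the MRX34 points lie above all controls, and in LAMB2 below them. COL27A1 is high on the dilution buffer arrays alone, and LAMA4 and COL24A1 are low on dilution buffer 3.

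Of the collagen-binding alpha chains, ITGA10 had the lowest p of all members. ITGA10, best known from cartilage, read 6.68, 6.56 and 5.92 after dilution buffer, 6.10, 6.49 and 5.79 after empty liposomes, and 6.80, 7.22 and 7.56 after MRX34. All MRX34 arrays were above all controls, MRX34 1 by a narrow margin over dilution buffer 1. The difference from both controls was 0.94 (SE 0.26, 1.91-fold; limma's adjusted p 0.326), with 1.07 against empty liposomes and 0.81 against dilution buffer. Without dilution buffer 3 and empty liposomes 1 the ITGA10 difference was 0.81.

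ITGA1, a receptor for collagen IV and laminin, read 8.20, 7.99 and 7.63 after dilution buffer, 7.91, 8.27 and 8.17 after empty liposomes, and 8.60, 8.76 and 8.34 after MRX34. The groups did not overlap between MRX34 and controls, by a narrow margin. The difference was 0.54 (SE 0.19, 1.45-fold; limma's adjusted p 0.397), 0.45 against empty liposomes and 0.63 against dilution buffer. ITGA2, the receptor for fibrillar collagen on epithelia and platelets, averaged 6.56 ± 0.03, 6.41 ± 0.41 and 6.74 ± 0.52 (SD, n = 3), with its highest value, 7.33, on MRX34 2. ITGA11, a fibroblast receptor for collagen I, read 5.57, 5.22 and 4.86 after dilution buffer, 7.20, 5.68 and 5.80 after empty liposomes, and 6.16, 5.54 and 5.20 after MRX34, so that empty liposomes 1 alone was high.

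ITGB1, the beta chain that pairs with all of these, averaged 12.01 ± 0.10, 11.99 ± 0.31 and 12.21 ± 0.36 (SD, n = 3) in the 3 groups. Its difference from both controls was 0.21, with a 95% interval of -0.26 to 0.67. ITGAV and ITGB5 together form a vitronectin receptor, and their tested probes varied little between arrays. ITGAV averaged 8.91 ± 0.08, 8.75 ± 0.17 and 8.82 ± 0.10, and ITGB5 averaged 12.13 ± 0.14, 12.14 ± 0.09 and 12.00 ± 0.13 in the 3 groups. Their differences from both controls were -0.02 (95% interval -0.37 to 0.34) and -0.14 (-0.49 to 0.21). Another ITGB5 probe above background on all 9 arrays varied more, from 8.81 to 10.33, and gave -0.48 (SE 0.28). A further one gave -0.12.

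ITGA5, the alpha chain of the main fibronectin receptor, varied most among the empty liposome arrays. It read 7.89, 7.72 and 7.23 after dilution buffer, 6.64, 8.28 and 9.31 after empty liposomes, and 7.34, 6.84 and 6.89 after MRX34. The group that received empty liposomes held both the lowest and the highest value of all 9 arrays. Against empty liposomes the ITGA5 difference was -1.05 (SE 0.55; limma's adjusted p 0.562), which became -1.77 without empty liposomes 1 and -0.44 without empty liposomes 3. Against dilution buffer it was -0.59.

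The laminin receptor chain ITGA6 read 6.64, 6.89 and 6.70 after dilution buffer, 4.84, 6.74 and 5.50 after empty liposomes, and 5.44, 6.95 and 6.25 after MRX34. Dilution buffer arrays were alike and the others were spread, with the lowest value on empty liposomes 1. ITGB4, its partner in the anchoring junctions of epithelia, averaged 6.68 ± 0.43, 6.29 ± 0.84 and 6.69 ± 0.35 (SD, n = 3), and its lowest value, 5.37, was on the same array. ITGA7, a laminin receptor chain of muscle, averaged 5.67 ± 0.38, 5.50 ± 0.45 and 5.76 ± 0.42.

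ITGA9, a receptor chain for tenascin and other ligands, read 5.82, 5.39 and 6.05 after dilution buffer, 6.71, 5.74 and 5.63 after empty liposomes, and 5.32, 4.99 and 5.32 after MRX34. All MRX34 arrays were below all controls, and 1 of them was above background. The difference was -0.68 (SE 0.27; limma's adjusted p 0.417), and -0.43 without dilution buffer 3 and empty liposomes 1, the second of which held its highest value. ITGA4, which shares ligands with ITGA9 and is known from leukocytes, averaged 5.32 ± 0.31, 5.60 ± 0.16 and 5.65 ± 0.29 (SD, n = 3).

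ITGB2, the beta chain of the leukocyte integrins, read 7.68, 7.06 and 7.23 after dilution buffer, 7.20, 7.75 and 7.64 after empty liposomes, and 7.93, 7.79 and 7.97 after MRX34. The MRX34 arrays were above all controls, MRX34 2 by a narrow margin over empty liposomes 2. The difference was 0.47 (SE 0.20, 1.38-fold; limma's adjusted p 0.442), and a second ITGB2 probe gave 0.87 (SE 0.26). Of 8 leukocyte and macrophage markers 5 were above background on at least 3 arrays, and PTPRC and CD3E were at 0 arrays. The mean of that list ranged from 6.15 to 6.48 after dilution buffer, from 6.32 to 6.75 after empty liposomes and from 6.36 to 6.76 after MRX34. CD68, a macrophage marker that other cells also make, read 10.99, 10.80 and 11.08 after dilution buffer, 10.85, 11.33 and 10.81 after empty liposomes, and 11.46, 11.36 and 11.35 after MRX34. No other marker of that list had all MRX34 arrays above all controls, and CD14, LYZ and CSF1R overlapped between MRX34 and controls. The part of leukocytes and macrophages in the ITGB2 result was not tested.

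Among the collagens, COL24A1 had the largest positive difference. COL24A1, a fibrillar collagen known from bone and cornea, read 7.77, 6.86 and 5.94 after dilution buffer, 6.89, 7.08 and 7.44 after empty liposomes, and 7.43, 8.41 and 8.00 after MRX34. Dilution buffer 1 and empty liposomes 3 reached the range of the MRX34 arrays, and dilution buffer 3 was lowest. The difference was 0.95 (SE 0.37, 1.93-fold; limma's adjusted p 0.417). With the GNMT and OTC level as a covariate the COL24A1 difference was 0.50, and without dilution buffer 3 and empty liposomes 1 it was 0.66.

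COL27A1, a fibrillar collagen of cartilage, read 5.67, 6.77 and 6.07 after dilution buffer, 4.74, 4.83 and 5.36 after empty liposomes, and 4.90, 4.70 and 5.45 after MRX34. It was above background on all 3 dilution buffer arrays and on 1 array of each other group. The MRX34 arrays were all below those of dilution buffer and overlapped those of empty liposomes. The COL27A1 difference was -1.15 against dilution buffer (SE 0.33; limma's adjusted p 0.435) and 0.04 against empty liposomes.

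COL9A3 and COL1A1 passed the filter through dilution buffer alone, and COL27A1 would not have passed without that group, so their differences from it follow in part from how they were kept. COL9A3, a chain of the collagen on the surface of cartilage fibrils, read 5.51, 5.92 and 5.68 after dilution buffer, 5.30, 5.19 and 5.16 after empty liposomes, and 5.22, 4.63 and 5.01 after MRX34. It was not well above background in any array of the other groups, and dilution buffer was at least 1.33-fold brighter than MRX34 (limma's adjusted p 0.435). COL1A1, the main chain of collagen I, read 5.24, 5.24 and 5.48 after dilution buffer, 5.14, 4.81 and 4.77 after empty liposomes, and 5.12, 5.13 and 5.00 after MRX34, with dilution buffer at least 1.02-fold brighter than MRX34.

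COL2A1, the fibrillar collagen of cartilage, was bright in every tumour. It read 11.54, 11.22 and 10.35 after dilution buffer, 10.32, 9.79 and 11.15 after empty liposomes, and 10.11, 9.77 and 10.53 after MRX34. The groups overlapped, and the COL2A1 difference was -0.90 against dilution buffer (SE 0.40; limma's adjusted p 0.491) and -0.29 against empty liposomes, where it was 0.08 without empty liposomes 3. A second, dimmer probe of COL2A1 gave -0.04 against both controls, where the first gave -0.59.

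COL18A1, a basement membrane collagen whose end releases endostatin and which hepatocytes are known to make, averaged 9.75 ± 0.38, 9.93 ± 0.50 and 9.45 ± 0.19 (SD, n = 3) in the 3 groups, a difference of -0.39 (95% interval -0.96 to 0.18). COL5A2, which joins collagen I fibrils, averaged 10.42 ± 0.18, 10.41 ± 0.31 and 10.53 ± 0.31, a difference of 0.11. COL7A1, which forms the anchoring fibrils of the skin, averaged 8.06 ± 0.27, 7.62 ± 1.01 and 7.75 ± 0.48, and COL9A2, a partner of COL9A3, 7.92 ± 0.72, 7.62 ± 0.44 and 7.86 ± 0.31. The arrays of MRX34 and controls overlapped in all 4 of these genes.

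The other 7 collagens tested overlapped between MRX34 and controls. COL8A2, a network collagen of the cornea, averaged 7.25 ± 0.86, 7.78 ± 0.84 and 7.03 ± 0.46 in the 3 groups, and its highest value, 8.68, was on empty liposomes 1. The tested probe of COL11A2, a cartilage fibril chain, was above background on 0 dilution buffer arrays, 2 empty liposome arrays and 1 MRX34 array, while a second probe, which did not pass the filter, was above it on 2 dilution buffer arrays and 0 others. The membrane-spanning collagens COL13A1, COL17A1 and COL23A1 and the fibril-associated COL16A1 and COL20A1 reached at most 6.64 on any array. COL17A1 was above background on 2 dilution buffer arrays, 1 empty liposome array and 0 MRX34 arrays. Of the 8 fibroblast and stellate cell markers, 4 were above background on at least 3 arrays and THY1, ACTA2 and LUM were at 0. Their mean ranged from 6.05 to 6.55 after dilution buffer, from 6.24 to 6.53 after empty liposomes and from 5.98 to 6.19 after MRX34. The markers did not move alike. DCN ran from 5.26 to 7.30 on the MRX34 arrays and from 5.67 to 9.67 on the controls. PDGFRA ran from 7.63 to 8.72 on the MRX34 arrays and from 7.16 to 8.26 on the controls. PDGFRB ran from 9.87 to 10.03 and from 9.57 to 10.42 in the same order. The part of such cells in the collagen values was not tested.

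The comparison of empty liposomes with dilution buffer asks what the carrier did without the mimic. In limma's fit 0 members and 0 genes (0%) passed, and the lowest adjusted p of a member was 0.766. At an unadjusted p under 0.05, 3 members (7.89%; LAMB2, COL11A2 and ITGA11) had higher levels after empty liposomes, where 2.74% of all genes did, and 3 (7.89%; COL27A1, LAMA3 and COL9A3) had lower levels, where 3.03% did. Those 3 lower members would not have passed the filter without the dilution buffer arrays, nor would COL11A2 without the empty liposome arrays, so nothing is read from these shares. The median of the members was -0.02 and that of all genes -0.03. LAMB2, with the values above, differed by 0.50 (SE 0.19) and COL27A1 by -1.19 (SE 0.33). The tested probe of COL11A2 read 4.65, 4.74 and 4.82 after dilution buffer and 8.10, 5.66 and 5.12 after empty liposomes, a difference of 1.55, or 0.65 without empty liposomes 1. A second COL11A2 probe read 5.26, 5.00 and 6.83 after dilution buffer and 5.85, 4.98 and 5.19 after empty liposomes, with dilution buffer 3 highest, so the probes of this gene did not behave alike. ITGA11 differed by 1.01, and by 0.52 without the same array. The tested probe of LAMA3 differed by -0.65 and was above background on 0 empty liposome arrays. The other LAMA3 probes past the filter differed by -0.03 and 0.08, so they did not show this difference. Each of them was above background on 1 empty liposome array. COL9A3 was at least 1.14-fold brighter after dilution buffer. Among those that missed the unadjusted threshold, COL13A1 differed by 0.62, LAMC3 by 0.56 and ITGA6 by -1.05, which became 0.32, 1.00 and -0.62 without empty liposomes 1, while COL1A1 was not well above background after empty liposomes.

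More than 1 probe passed the filter in 9 of the tested members, and in 7 of these all probes gave the same sign for MRX34 against both controls. The probes of ITGB1 gave 0.21 for the brightest, 0.06 and -0.01 for the next, and -0.41 for a dim probe above background on 3 arrays. Those of ITGB4 gave 0.20 for the brightest and -0.07 and -0.11 for others that were above background on 3 arrays each. In LAMA4, ITGB2, LAMA3, LAMB1, ITGB5, COL2A1 and COL8A2 the probes agreed in sign.

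**Figure D5:**
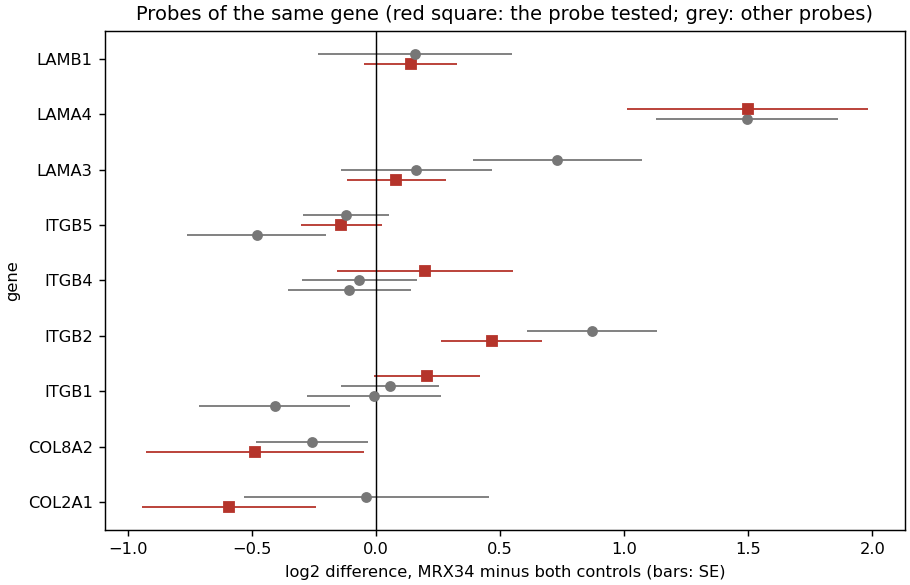
Log2 difference between MRX34 and the mean of both controls (x axis; bars, SE from limma) for each probe past the filter of the 9 members with more than 1. Red squares are the probes tested and grey circles the others. The LAMA4 probes coincide at 1.50, and ITGB1 and ITGB4 have probes on both sides of 0.

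Genes that make, modify or bind these proteins were read in the same fit of MRX34 against both controls, in 7 lists, and 0 of their tested genes passed in limma's fit. Of 21 tested genes for collagen folding and crosslinking 15 were negative, with a median of -0.21 beside 0.04 for all genes. Of all genes 55% were positive. LOXL4, a lysyl oxidase that crosslinks collagen, differed by -0.89, with -1.19 against empty liposomes and -0.59 against dilution buffer. Its MRX34 arrays overlapped those of dilution buffer. PLOD2, a lysyl hydroxylase of collagen, differed by 0.69, with all MRX34 arrays above all controls. The other lysyl hydroxylases went the other way. PLOD1 differed by -0.43 and PLOD3 by -0.53, both with all MRX34 arrays below all controls. P4HA1, of the same list, differed by 0.86, and its MRX34 arrays overlapped the controls. SERPINH1, the collagen chaperone, read 9.57, 9.76 and 9.73 on the MRX34 arrays and between 9.96 and 10.71 on the controls, with no overlap. At an unadjusted p under 0.05, 3 of the 21 were higher and 5 lower, SERPINH1 among the lower. Of all genes 6.88% were higher and 4.24% lower at that threshold.

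Of 9 tested partners of laminin in the basement membrane 8 were negative, with a median of -0.14, and 3 of them had an unadjusted p under 0.05, where 4.24% of all genes were lower. The count depended on the control: 5 were negative against empty liposomes (median -0.13) and 7 against dilution buffer (median -0.44). For empty liposomes against dilution buffer 6 were negative. DAG1, the laminin receptor dystroglycan, read 9.64, 9.25 and 9.63 on the MRX34 arrays and between 9.81 and 10.31 on the controls, a difference of -0.64 (limma's adjusted p 0.339). NID1, the nidogen that ties laminin to collagen IV, differed by -0.99 and BCAM, a receptor of LAMA5, by -0.96, and in both the groups overlapped. The BCAM difference was -0.47 against empty liposomes and -1.45 against dilution buffer. Empty liposomes themselves differed from dilution buffer by -0.98 in BCAM.

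Of 39 tested genes for integrin activation and focal adhesions 22 were negative, with a median of -0.18. At an unadjusted p under 0.05, 1 was higher and 5 lower, where 6.88% and 4.24% of all genes were. CAV1, the coat protein of caveolae, read 8.82, 8.97 and 8.83 on the MRX34 arrays and between 8.01 and 8.26 on the controls, a difference of 0.77 (SE 0.15; limma's adjusted p 0.246). ACTN1, which links integrins to actin, read 10.90, 10.62 and 10.83 on the MRX34 arrays and between 11.17 and 11.50 on the controls, a difference of -0.57. KANK2, which binds talin at adhesions, differed by -0.67.

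Of 10 other matrix receptors tested, 4 were positive, with a median of -0.05. At an unadjusted p under 0.05, 2 were higher and 2 lower, where 6.88% and 4.24% of all genes were. CD36, a receptor for thrombospondin and collagen, differed by 0.94, the syndecan SDC2 by 0.45 and the glypican GPC1 by -0.48. Of 23 other matrix glycoproteins and proteoglycans 15 were negative, with a median of -0.04. At an unadjusted p under 0.05, 0 were higher and 2 lower, where 6.88% and 4.24% of all genes were. The 2 were THBS1 (-1.88) and DCN (-1.90), while FBLN1 differed by -0.30. DCN, whose difference was -1.14 without dilution buffer 3 and empty liposomes 1, read 5.67, 7.28 and 9.40 after dilution buffer, 9.67, 7.75 and 8.37 after empty liposomes, and 7.30, 5.26 and 5.80 after MRX34, with its highest values on the arrays where GNMT and OTC were highest. None of 15 tested proteases and inhibitors of the matrix had an unadjusted p under 0.05, and MMP15 (-0.81), TIMP1 (0.41) and ADAM17 (0.30) had the smallest. The MMP15 value was -0.11 without MRX34 2. The integrin alpha chains ITGAE, ITGAL and ITGA2B, whose symbols fall outside the rule, differed by 0.23, 0.20 and 0.01.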

How the data were processed

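Total RNA of whole tumours was labelled with biotin and hybridised to 9 Illumina arrays, per the labels' protocols. The deposited table holds intensity values, which from the values were quantile normalized and not background-subtracted, each with a detection p-value per the file headers. The deposited series table holds background-subtracted intensity values and was used as an alternative. How the authors scanned and normalized was not given in the sources used here. For the tests, signals were corrected with limma 3.58.1 in R 4.3.3 (normexp, with the negative-control level from the detection p-values), raised by 16, quantile normalized and turned into log2 values. Probes with a detection p under 0.05 on at least 3 of 9 arrays were kept, and the brightest probe stood for each of 15387 genes, with symbols updated through RefSeq for GRCh38.p14. The 3 group means were fitted in limma on all arrays, with 4 contrasts and p-values adjusted over all genes (Benjamini-Hochberg), and the fit was tested on simulated data. The number of arrays limits the precision. Named are the 15 members with the highest mean level, in each contrast the 5 members on either side with the smallest p, the chain partners, the members whose probes differ in sign, and up to 3 genes of each related list. COL8A2, ITGA7, ITGA4, LAMB3, COL12A1, PLOD1, PLOD2 and PLOD3 were added to complete their family or comparison. So were GNMT, OTC and the marker genes beyond this rule. Members and lists were chosen with earlier results of these data known. Replicate numbers in the labels were checked as pairs: deviations from group means correlated at 0.44, 0.49 and 0.28 between empty liposomes and MRX34 of the same number, and between -0.32 and 0.30 for dilution buffer and empty liposomes. Alternatives changed the correction, normalization, source table, filter, probe rule, variance model and covariates, left out arrays, and added a replicate block. The values of 1 member are not reported here.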

Additional observations from a re-analysis of the deposited data

Results flagged for a closer look

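In 4 of the 38 tested members a control array stood apart from the other 5 by more than Dixon's 95% critical value for 6 samples, as a share of the range. Chance alone flags about 5% of groups. COL11A2 was highest on empty liposomes 1 (8.10; gap 0.708 of the range), and COL17A1 was highest on dilution buffer 3 (6.09; 0.643). COL7A1 (6.45; 0.720) and COL16A1 (5.21; 0.660) were lowest on empty liposomes 1. Empty liposomes 1 was the dimmest array, with a mean background-subtracted intensity of 163, and dilution buffer 3 had the highest GNMT and OTC level, 14.32. The part of either in these values was not tested.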

How the results depend on the processing

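None of 40 member differences changed sign under the alternatives run for it, 23 to 25 each. These 40 had the smallest p on either side of each contrast in the same data, so their signs were unlikely to change. Some other member differences did change sign, and these are not counted here. Against both controls, ITGA2 went from 0.25 to -0.04 without MRX34 2. ITGB4 went from 0.20 to -0.16 without dilution buffer 3 and empty liposomes 1. With array weights, 4 members passed against empty liposomes, 12 against dilution buffer and 9 against both, while 267, 2828 and 1465 genes of the whole table did in the same order, and 6 did between the controls; under every other alternative run 0 members passed and at most 3 genes did. The members' median against empty liposomes was -0.0613 with median scaling of the series value table and -0.0584 without dilution buffer 3 and empty liposomes 1, and ranged from -0.0584 (without empty liposomes 1) to 0.0916 when each array was left out. Against dilution buffer it was 0.0492 without those 2 arrays and ranged from -0.136 to 0.0492 (without dilution buffer 3). Between the controls it was 0.128 with median scaling. Members at an unadjusted p under 0.05 numbered 4 to 15 against both controls (9 as reported), 3 to 9 against empty liposomes (4), 3 to 15 against dilution buffer (7) and 1 to 13 between the controls (6). A replicate block, in which the numbers paired empty liposomes and MRX34, left 0 members past the threshold: ITGA10 against empty liposomes had 1.07 with an adjusted p of 0.435 and LAMB2 had -0.81 with 0.415 in limma, and the pairing changed no other call. The strict filter dropped members not above background on all 9 arrays. Dim probes and 3 arrays a group limit what could pass.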
